A study of Homo sapiens with 10 samples.

Results

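The transcripts described here encode the hypoxia-inducible factor (HIF) subunits, the enzymes that read oxygen for them, and the mitophagy receptors BNIP3 and BNIP3L. All probes annotated to HIF1A, EPAS1, ARNT, EGLN1, EGLN2, EGLN3, VHL, HIF1AN, BNIP3 or BNIP3L were taken, which gave 17 probes of 10 genes among 48801 probes and 18664 named genes. They were read as a log2 signal per probe on 10 Illumina BeadChip arrays of C4-2, an established line of human prostate cancer cells. The groups were C4-2 cells stably overexpressing a nuclear fusion of AcGFP and ARRB1 with added nuclear localisation signals (nucARRB1, 2 arrays), cells stably overexpressing the ARRB1 fusion without them (wtARRB1, 2 arrays), cells with the GFP vector (GFP, 3 arrays) and unmodified cells (parental, 3 arrays). ARRB1 is β-arrestin 1, a scaffold protein of receptor signalling that also enters the nucleus, and the study linked its nuclear form to HIF1A.

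No group received a treatment. The stable lines were made by nucleofection and kept in G418, so that wtARRB1 and nucARRB1 share with GFP a vector and a selection that parental cells lack. The arrays of each stable group carry names of their own, and the study speaks of several nucARRB1 lines, so the arrays of a group may come from separate lines of 1 construct. Here a line means the arrays of 1 construct together. Whether these are clones or pools is not stated in the sources used here, and a difference between constructs cannot be told apart from a difference between clones. The labels do not say that the arrays of a group came from separate cultures, so p-values measure the spread between these arrays, which may be technical.

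The constructs were built on a synthetic ARRB1 sequence, and none of the 4 ARRB1 probes was higher in the lines labelled wtARRB1 or nucARRB1. The brightest of them was 0.44 lower in nucARRB1 (limma adjusted p = 0.138) and 0.76 lower in wtARRB1 (limma adjusted p = 0.00714) than in GFP on the log2 scale. Whether these probes can read the transgene was not tested, so the arrays give no check of the labels. Arrays of one group correlated at 0.982 to 0.992 over all probes, and ARRB1 arrays correlated with control arrays at 0.960 to 0.982. Of 8 measured luminal prostate markers, 5 had a mean signal above the 90th percentile of all probes, and none of 10 markers of stroma, endothelium, blood or basal cells did. The luminal markers lay above GFP by a median of 0.40 in nucARRB1 and 0.64 in wtARRB1, but they did not all rise. STEAP2 and TMPRSS2 were called higher in nucARRB1, and STEAP2 and FOLH1 were called higher in wtARRB1. HOXB13 (-0.36), KRT18 (-0.34) and KLK3 (-0.14) lay below GFP in nucARRB1 without passing. In wtARRB1 HOXB13 (-0.55, limma adjusted p = 0.0106) and KRT18 (-0.25) lay below GFP without passing. KLK3 was the faintest luminal marker, at a mean signal of 6.59. The endothelial marker VWF was 0.57 higher in wtARRB1 (limma adjusted p = 0.00716), and the other 9 markers of other cells were not called in either line. Of these 5 calls, those other than STEAP2 in wtARRB1 were lost with 1 or another array left out (limma adjusted p up to 0.125), and all 5 were lost without normalisation between arrays (0.022 to 0.327). The part of these markers in the results was not tested.

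HIF is a transcription factor of an oxygen-labile alpha subunit (HIF1A or EPAS1) and the stable partner ARNT. The prolyl hydroxylases EGLN1, EGLN2 and EGLN3 use oxygen and 2-oxoglutarate to mark the alpha subunit for the ubiquitin ligase of VHL. Succinate and fumarate inhibit these prolyl hydroxylases. HIF1AN hydroxylates the alpha subunit at an asparagine and so limits its activity. BNIP3 and BNIP3L sit on the outer mitochondrial membrane, bind proteins of the LC3 and GABARAP family and so mark mitochondria for autophagy, and both genes are known HIF targets. Much of this control acts on protein, which was not measured here.

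HIF binds the core ACGTG or GCGTG, known as the hypoxia response element, and the promoters of the members were searched for it to set beside their transcript levels. RefSeq windows reaching 250 bases before and 50 bases after a gene start (GRCh38.p14) were found for 8 of the 10 genes, with 10 windows in all, and not for VHL and BNIP3L. At least 1 core on either strand lay in 5 of these windows, those of BNIP3, EGLN1, EPAS1 and the first-listed windows of HIF1A and EGLN2. Of 35114 windows of the same length, 48.4% held one. BNIP3 had 6 matches between -143 and -104 from its start, 2 of them the same palindrome CACGTG read on both strands, and 0.923% of all windows had 6 or more. The bases before the start are given here for BNIP3, the member with the most matches, and for EGLN1, with 1 match at -13, because the ARRB1 arrays lay on opposite sides of GFP for these genes. Capitals mark a core on either strand, and a match describes letters only. The BNIP3 stretch is chr10:131981924-131982173 and the EGLN1 stretch is chr1:231422288-231422537, both on the minus strand.
BNIP3: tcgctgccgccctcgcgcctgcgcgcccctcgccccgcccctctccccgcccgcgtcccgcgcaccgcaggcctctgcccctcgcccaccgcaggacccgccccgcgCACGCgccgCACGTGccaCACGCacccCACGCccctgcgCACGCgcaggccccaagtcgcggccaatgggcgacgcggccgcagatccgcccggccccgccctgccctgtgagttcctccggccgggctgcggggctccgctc
EGLN1: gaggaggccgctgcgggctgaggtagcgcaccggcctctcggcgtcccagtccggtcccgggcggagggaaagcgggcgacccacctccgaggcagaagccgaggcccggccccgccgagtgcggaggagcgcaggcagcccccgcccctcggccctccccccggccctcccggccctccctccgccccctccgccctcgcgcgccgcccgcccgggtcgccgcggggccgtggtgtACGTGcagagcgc

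The first question was which of these transcripts differed between the ARRB1 lines and the GFP line. BNIP3L rose in nucARRB1 and wtARRB1, BNIP3 lay above GFP without passing the test in either line, EGLN1 lay below GFP without passing, and no probe of the HIF subunits, EGLN2, EGLN3, VHL or HIF1AN passed. Calls were made by limma at a 1% false discovery rate, with p-values adjusted over all 48801 probes. In nucARRB1 against GFP, 2 of 17 member probes were called and both were higher, where 5.91% of all probes were called in either direction and 2.87% were called higher. In wtARRB1 against GFP, 1 of 17 was called and was higher, where 4.72% of all probes were called and 2.40% were called higher. The same 3 GFP arrays served both comparisons. The median difference over the members was 0.11 in nucARRB1 and 0.05 in wtARRB1 on the log2 scale, where the median over all probes was -0.003 in nucARRB1 and -0.002 in wtARRB1.

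**Figure D1:**
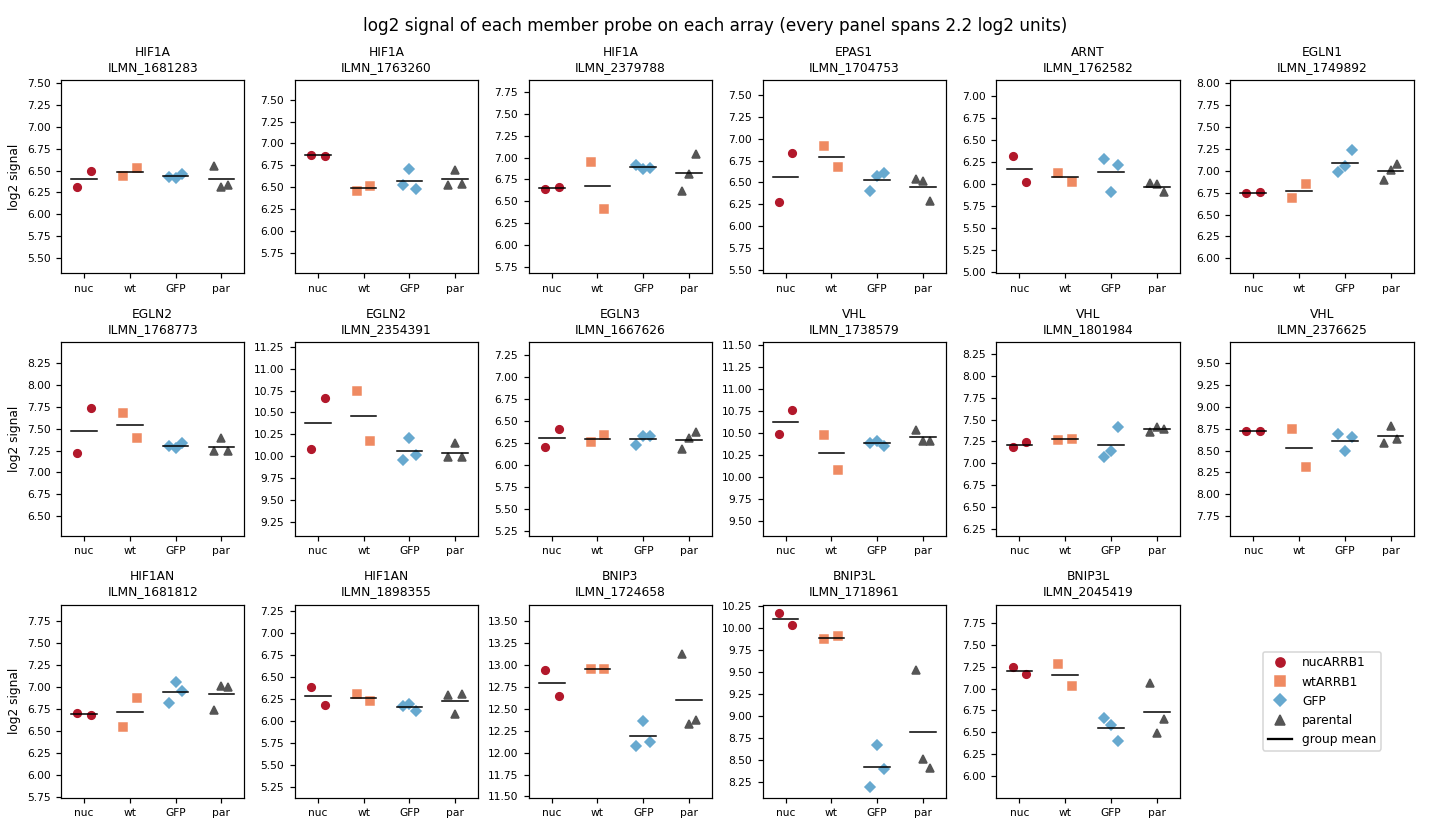
Each panel plots 1 probe, with the log2 signal on the vertical axis and the 4 groups (nucARRB1, wtARRB1, GFP, parental) along the horizontal axis; points are single arrays and black lines are group means. On the BNIP3L probe ILMN_1718961 the ARRB1 arrays lie between 9.87 and 10.17 and the GFP arrays between 8.19 and 8.67, and on the BNIP3 probe and both BNIP3L probes 1 parental array, replicate 1, lies above the other parental arrays.

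BNIP3L, also known as NIX, is the receptor that clears mitochondria from maturing red cells. Its probe ILMN_1718961 read 10.17 and 10.03 in nucARRB1, 9.87 and 9.91 in wtARRB1, 8.19, 8.67 and 8.39 in GFP, and 9.52, 8.51 and 8.41 in parental cells. All 4 ARRB1 arrays lay above all 6 control arrays, and parental replicate 1 was the control closest to them. The difference from GFP was 1.68 ± 0.235 in nucARRB1 (log2 ± SE, 3.21-fold, limma adjusted p = 0.000161, n = 2 against 3 arrays). In wtARRB1 it was 1.47 ± 0.235 (2.78-fold, limma adjusted p = 0.000636, n = 2 against 3). Both calls held when any 1 of the 10 arrays was left out. An array averages over its cells, so that more cells with the transcript and more transcript per cell cannot be told apart.

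The second BNIP3L probe, ILMN_2045419, read 7.24 and 7.16 in nucARRB1, 7.28 and 7.03 in wtARRB1, 6.67, 6.58 and 6.40 in GFP, and 7.06, 6.49 and 6.65 in parental cells. It again separated the ARRB1 arrays from the GFP arrays, while parental replicate 1 lay within the range of the ARRB1 arrays. It was 0.65 ± 0.150 higher in nucARRB1 than in GFP (1.57-fold, limma adjusted p = 0.00911), close to the threshold. In wtARRB1 it was 0.60 ± 0.150 above GFP (1.52-fold) and did not pass (limma adjusted p = 0.0182). The nucARRB1 call was lost without parental replicate 3 (limma adjusted p = 0.0155), without GFP replicate 1 (0.0151), 2 (0.0292) or 3 (0.0512), and without nucARRB1 replicate 1 (0.0661) or 2 (0.025). The wtARRB1 difference passed without parental replicate 1 (limma adjusted p = 0.00473).

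BNIP3 is the related receptor, and its transcript is a common readout of hypoxia. It read 12.94 and 12.64 in nucARRB1, 12.95 and 12.95 in wtARRB1, 12.08, 12.36 and 12.12 in GFP, and 13.12, 12.32 and 12.37 in parental cells. The ARRB1 arrays all lay above the GFP arrays and above parental replicates 2 and 3, but parental replicate 1 was the highest of the 10. BNIP3 was 0.61 ± 0.188 above GFP in nucARRB1 (1.52-fold, 95% interval 1.15 to 2.01, limma adjusted p = 0.057). In wtARRB1 it was 0.76 ± 0.188 above GFP (1.70-fold, 95% interval 1.29 to 2.24, limma adjusted p = 0.0164). Neither passed at 1%. Without parental replicate 1 in the fit both passed at the same fold, since only the pooled spread changed (limma adjusted p = 0.00403 in nucARRB1 and 0.000812 in wtARRB1). In wtARRB1 BNIP3 also passed without nucARRB1 replicate 1 (limma adjusted p = 0.00811) and without nucARRB1 replicate 2 (0.00811). The mean of both ARRB1 lines, a comparison added after seeing the data, was 0.69 ± 0.157 above GFP (limma adjusted p = 0.0073), where 7.41% of all probes were called.

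The values of both receptors depended on the control used. Parental replicate 1 exceeded the mean of parental replicates 2 and 3 by 1.05 on ILMN_1718961, by 0.49 on ILMN_2045419 and by 0.77 on the BNIP3 probe. Against all 3 parental arrays, ILMN_1718961 was 1.28 ± 0.235 higher in nucARRB1 (limma adjusted p = 0.00255), and in wtARRB1 it was 1.07 ± 0.235 above them without passing (0.0117). Neither ILMN_2045419 nor BNIP3 passed against them in either line, with BNIP3 at 0.19 in nucARRB1 (limma adjusted p = 0.782) and 0.35 in wtARRB1 (0.486). Against parental replicates 2 and 3 alone, a comparison added after seeing the data, ILMN_1718961 was higher by 1.63 in nucARRB1 (limma adjusted p = 7.52e-06) and by 1.43 in wtARRB1 (3.14e-05). On ILMN_2045419 the difference was then 0.63 in nucARRB1, which passed (limma adjusted p = 0.0081), and 0.58 in wtARRB1, which did not (0.017). BNIP3 was then 0.45 above in nucARRB1 (limma adjusted p = 0.069) and 0.60 above in wtARRB1 (0.0145).

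**Figure D2:**
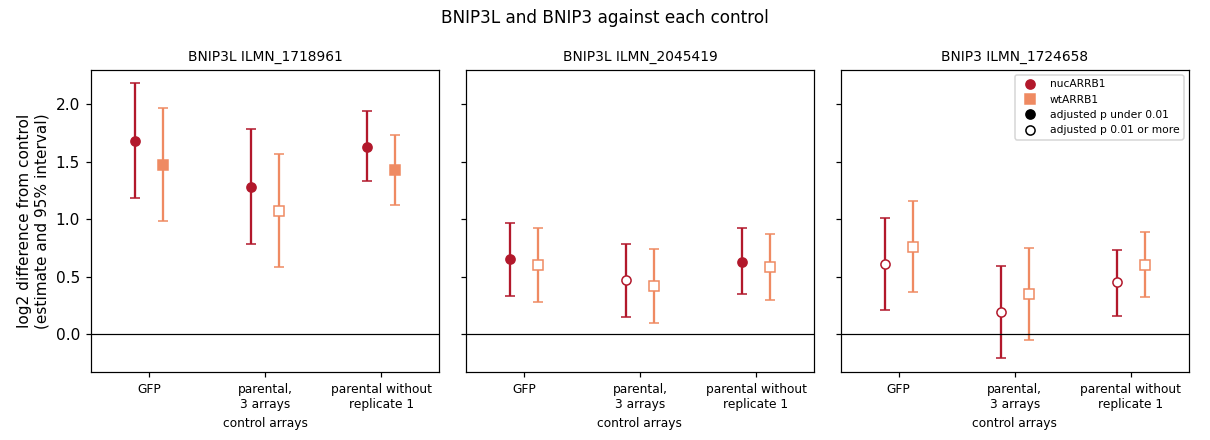
Each panel plots 1 probe, with the log2 difference from the control on the vertical axis and the control arrays on the horizontal axis (GFP, the 3 parental arrays, parental replicates 2 and 3); points are limma estimates, bars are 95% intervals and filled points have an adjusted p under 0.01. For ILMN_1718961 in nucARRB1 the estimate is 1.68 against GFP, 1.28 against the 3 parental arrays and 1.63 without parental replicate 1.

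The genes most like BNIP3L over the 10 arrays were then listed, and how many genes correlated this closely was not counted. With each gene taken by its brightest probe, the highest Pearson correlations with BNIP3L were those of LYRM1 (r = 0.986), KLHDC9 (0.983) and TMEM219 (0.982), over arrays that share the 4 groups. LYRM1 read 12.52 and 12.22 in nucARRB1, 12.02 and 12.16 in wtARRB1, 10.70, 11.15 and 10.83 in GFP, and 11.59, 11.02 and 11.04 in parental cells. Parental replicate 1 was the highest control array for LYRM1, KLHDC9 and TMEM219, as it was for BNIP3L. The BNIP3 probe correlated with ILMN_1718961 at 0.882 and with ILMN_2045419 at 0.865, and these values describe arrays of the same groups.

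The alpha subunits and ARNT showed no called difference. HIF1A was read by 3 probes, each within 0.5 log2 units of the array median of 6.303, which limits what they can show. The probe ILMN_1763260 read 6.87 and 6.86 in nucARRB1, 6.46 and 6.52 in wtARRB1, 6.53, 6.71 and 6.48 in GFP, and 6.53, 6.70 and 6.54 in parental cells. The nucARRB1 arrays were the highest of the 10 by this probe, at 0.29 ± 0.110 above GFP (limma adjusted p = 0.149). Of the other HIF1A probes, ILMN_2379788 lay below GFP in nucARRB1 and ILMN_1681283 lay close to it, and neither passed. ILMN_2379788 differed by -0.23 (95% interval -0.55 to 0.09, limma adjusted p = 0.526) and ILMN_1681283 by -0.03 (95% interval -0.27 to 0.20, limma adjusted p = 0.946). The probes thus gave no common direction for HIF1A, and the difference between their targets was not tested. In wtARRB1 the 3 probes differed from GFP by 0.05, -0.08 and -0.20, none with a limma adjusted p below 0.614.

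EPAS1, the alpha subunit also called HIF2A, read 6.28 and 6.84 in nucARRB1, 6.91 and 6.68 in wtARRB1, 6.40, 6.57 and 6.61 in GFP, and 6.54, 6.52 and 6.29 in parental cells. The nucARRB1 arrays lay on either side of the GFP arrays. The wtARRB1 arrays lay above them, by 0.27 on average (95% interval -0.05 to 0.59, limma adjusted p = 0.433). The mean EPAS1 signal over the 10 arrays, 6.56, lay within 0.5 log2 units of the array median, so a change can be understated. ARNT, the constitutive partner, read 6.32 and 6.02 in nucARRB1, 6.13 and 6.03 in wtARRB1, and 5.91 to 6.29 in GFP. Its signal lay below the array median on 9 of 10 arrays, so that a change of this transcript could be missed. Its difference from GFP was 0.03 in nucARRB1 (95% interval -0.25 to 0.30) and -0.06 in wtARRB1 (95% interval -0.33 to 0.22).

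Among the prolyl hydroxylases, EGLN1 (PHD2) is regarded as the main oxygen sensor in normoxia. It read 6.74 and 6.76 in nucARRB1, 6.69 and 6.85 in wtARRB1, 6.98, 7.05 and 7.24 in GFP, and 6.89, 7.01 and 7.08 in parental cells. All 4 ARRB1 arrays were below all 6 control arrays, by a small margin. The difference from GFP was -0.34 ± 0.115 in nucARRB1 (0.791-fold, 95% interval 0.668 to 0.936, limma adjusted p = 0.0896) and -0.32 ± 0.115 in wtARRB1 (0.801-fold, 95% interval 0.677 to 0.948, limma adjusted p = 0.124). It passed in neither line, nor with any 1 array left out, with limma adjusted p from 0.0768 to 0.301 in nucARRB1 and from 0.107 to 0.516 in wtARRB1. Without normalisation between arrays the EGLN1 difference in wtARRB1 was -0.49 (limma adjusted p = 0.093).

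EGLN2 (PHD1) split the arrays within each ARRB1 group. Its brighter probe, ILMN_2354391, read 10.08 and 10.67 in nucARRB1, 10.74 and 10.17 in wtARRB1, 9.96, 10.21 and 10.02 in GFP, and 9.99, 10.15 and 9.99 in parental cells. One array of each ARRB1 line stood clear of the controls and the other lay within the GFP range, and the probe ILMN_1768773 was highest on the same arrays (7.73 in nucARRB1 replicate 2 and 7.68 in wtARRB1 replicate 1). The mean difference on the brighter probe was 0.31 ± 0.173 in nucARRB1 (limma adjusted p = 0.429) and 0.39 ± 0.173 in wtARRB1 (0.265). These differences depended on the scaling, being 0.08 in nucARRB1 and 0.09 in wtARRB1 with median scaling, and 0.10 in nucARRB1 and 0.01 in wtARRB1 without normalisation. EGLN3 (PHD3), which hypoxia strongly induces in many cells, differed by 0.01 from GFP in both lines, with 95% intervals from -0.22 to 0.25 in nucARRB1 and from -0.23 to 0.24 in wtARRB1. Its 10 values ran from 6.18 to 6.41 around the array median, so that a change of a faint transcript could be missed.

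VHL, the substrate-binding part of the ligase, was read by 3 probes. The brightest, ILMN_1738579, read 10.49 and 10.76 in nucARRB1, 10.47 and 10.08 in wtARRB1, 10.38, 10.41 and 10.35 in GFP, and 10.53, 10.41 and 10.41 in parental cells. The nucARRB1 arrays were above the GFP arrays, by 0.25 ± 0.127 (limma adjusted p = 0.361), and the wtARRB1 arrays lay on either side of them. The other VHL probes differed from GFP by 0.01 and 0.11 in nucARRB1 and by 0.06 and -0.08 in wtARRB1, without passing. With median scaling ILMN_1738579 differed by 0.03 in nucARRB1 and by -0.40 in wtARRB1 (limma adjusted p = 0.109), and ILMN_2376625 turned to -0.10 in nucARRB1, so that no direction can be given for VHL. HIF1AN, also known as FIH, read 6.70 and 6.68 in nucARRB1, 6.55 and 6.88 in wtARRB1, 6.82, 7.06 and 6.95 in GFP, and 6.74, 7.01 and 7.0 in parental cells on the probe ILMN_1681812. Its difference from GFP was -0.25 in nucARRB1 (95% interval -0.52 to 0.02, limma adjusted p = 0.348) and -0.23 in wtARRB1 (95% interval -0.50 to 0.04, limma adjusted p = 0.438), and its second probe, near the array median, differed by 0.13 in nucARRB1 and 0.11 in wtARRB1. Without normalisation ILMN_1681812 differed by -0.39 in wtARRB1 (limma adjusted p = 0.2).

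**Figure D3:**
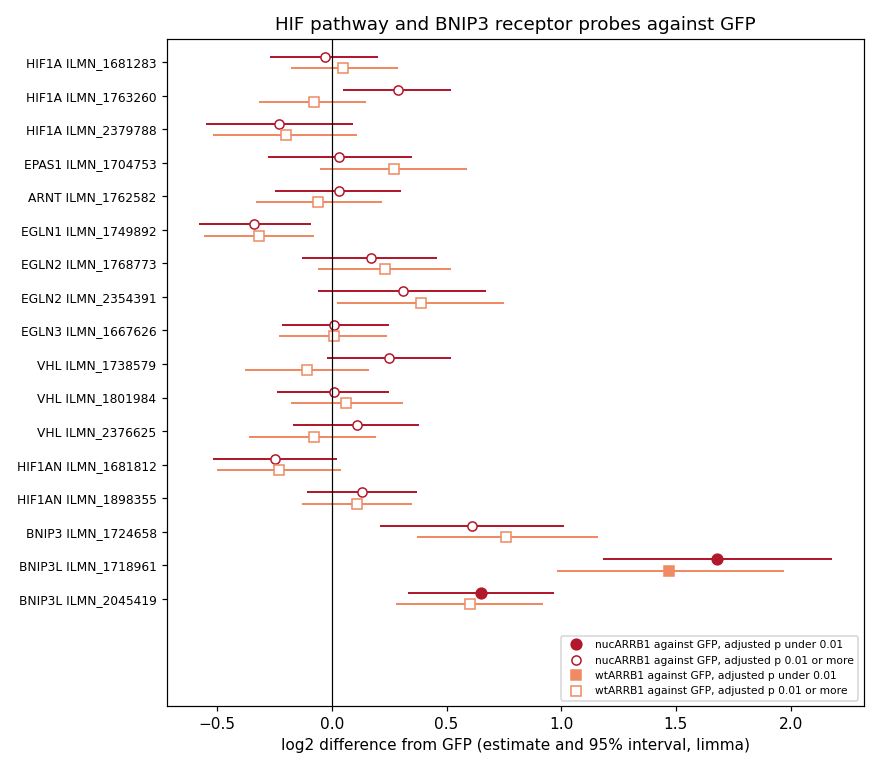
The log2 difference from GFP of every member probe is on the horizontal axis and the probes run down the vertical axis; points are limma estimates for nucARRB1 (circles) and wtARRB1 (squares), bars are 95% intervals and filled points have an adjusted p under 0.01. The filled points are both BNIP3L probes in nucARRB1 (1.68 and 0.65) and the probe ILMN_1718961 in wtARRB1 (1.47).

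The second question was whether the nuclear fusion differed from the wild-type fusion. No member probe was called in nucARRB1 against wtARRB1 by limma, where 0.0492% of all probes were called. At an unadjusted p under 0.05 there were 2 of 17 member probes, where 7.22% of all probes were at that level. They were the HIF1A probe ILMN_1763260, 0.37 ± 0.121 above wtARRB1 (95% interval 0.11 to 0.63, limma adjusted p = 0.422), and the VHL probe ILMN_1738579, 0.35 ± 0.139 above (95% interval 0.06 to 0.65, limma adjusted p = 0.576). BNIP3L differed by 0.21 on ILMN_1718961 (95% interval -0.34 to 0.75) and BNIP3 by -0.16 (95% interval -0.60 to 0.28). These intervals still hold differences of up to 1.69-fold for BNIP3L, so that 2 arrays per line do not show that the lines are alike.

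The third question was what the vector and selection did by themselves. No member probe was called in GFP against parental cells by limma, where 0.0287% of all probes were called, and 1 of 17 was at an unadjusted p under 0.05, where 7.06% of all probes were. That probe was BNIP3, at -0.42 ± 0.168 (95% interval -0.77 to -0.06, limma adjusted p = 0.594). Without parental replicate 1 the difference was -0.16 (95% interval -0.42 to 0.10). BNIP3L differed by -0.40 on ILMN_1718961 (95% interval -0.85 to 0.05), and by -0.05 without that array.

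The genes around these members were then counted by their brightest probes, from lists that hold none of the 10 members. For the genes named from these lists, the other controls, scalings and left-out arrays were chosen after seeing the data. Over all named genes, 4.97% were called higher and 5.89% lower in nucARRB1 against GFP, and 4.26% higher and 4.70% lower in wtARRB1 against GFP. With arrays scaled to a common median instead, 512 genes were higher and 1316 lower in nucARRB1, against 927 and 1100 after quantile normalisation, so the balance of directions over all genes depends on the scaling. In wtARRB1 the counts were 345 higher and 1264 lower, against 795 and 877.

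Of 40 measured HIF1A target genes, 3 were higher, 6 lower and 31 did not pass in nucARRB1, and 6 were higher, 4 lower and 30 did not pass in wtARRB1. The median difference over the list was -0.01 in nucARRB1 and 0.07 in wtARRB1, beside -0.01 and 0 over all genes. DDIT4, an inhibitor of mTORC1, rose most, and read 11.83 and 12.75 in nucARRB1, 12.93 and 12.95 in wtARRB1, 9.29, 8.97 and 9.18 in GFP, and 11.53, 10.39 and 10.26 in parental cells. Parental replicate 1 was once more the control nearest the ARRB1 arrays. DDIT4 was 8.83-fold higher in nucARRB1 (3.14 ± 0.292, limma adjusted p = 4.56e-06) and 13.9-fold higher in wtARRB1 (3.79 ± 0.292, limma adjusted p = 1.42e-06). Against parental cells it was 2.95-fold higher in nucARRB1 (1.56, limma adjusted p = 0.00299) and 4.64-fold higher in wtARRB1 (2.21, 0.000329), since GFP lay below parental cells. The secreted glycoprotein STC2 rose 4.0-fold in nucARRB1 and 3.76-fold in wtARRB1.

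VEGFA, the angiogenic growth factor and a classical HIF target, read 8.99 and 9.48 in nucARRB1, 9.53 and 8.88 in wtARRB1, 7.18, 7.21 and 7.56 in GFP, and 7.98, 7.40 and 7.48 in parental cells. It was 3.78-fold higher in nucARRB1 (1.92 ± 0.205, limma adjusted p = 1.45e-05) and 3.70-fold higher in wtARRB1 (1.89 ± 0.205, limma adjusted p = 2.82e-05). Of its other probes, ILMN_1803882 was 0.86 higher in nucARRB1 (limma adjusted p = 0.00426) and 0.73 above GFP in wtARRB1 (0.0171), and ILMN_1693060, near the array median, was not called. Other targets moved the opposite way. CA12, a carbonic anhydrase of the cell surface, fell by 1.44 in nucARRB1 and by 0.68 in wtARRB1 on the log2 scale, and HK1, a hexokinase, fell by 0.95 in nucARRB1 and by 0.69 in wtARRB1. PFKFB3, a regulator of glycolytic rate, fell by 0.91 in nucARRB1 and by 0.89 in wtARRB1. Several of these falls were not firm. Against parental cells CA12 was 0.95 lower in nucARRB1 (limma adjusted p = 0.000534) but differed by only -0.19 in wtARRB1 (0.697), and its wtARRB1 call was also lost without parental replicate 2 or 3, any 1 GFP array or either wtARRB1 array (0.0107 to 0.0638). HK1 in wtARRB1 was lost against parental cells (-0.47, limma adjusted p = 0.0292) and without wtARRB1 replicate 2 (-0.54, 0.033). PFKFB3 was lost in nucARRB1 without GFP replicate 2 (limma adjusted p = 0.0113), GFP replicate 3 (0.0145) or nucARRB1 replicate 1 (-0.50, 0.0541), and in wtARRB1 without any 1 GFP or wtARRB1 array (0.012 to 0.0317).

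LDHA, which converts pyruvate to lactate, fell by 0.97 in nucARRB1 (limma adjusted p = 0.00071) and differed by -0.56 in wtARRB1 (0.0429). The glycolytic enzyme ENO1, which is named after its values were seen, was lower in nucARRB1 (-0.87, limma adjusted p = 5.66e-05) and in wtARRB1 (-0.67, 0.000745). Without normalisation it passed in neither (-0.65 in each, limma adjusted p = 0.0176 in nucARRB1 and 0.0153 in wtARRB1), and in wtARRB1 it was lost without wtARRB1 replicate 2 (0.0109) or against parental replicates 2 and 3 alone (-0.51, 0.0221). A second CA12 probe was lower in nucARRB1 as well (-0.64, limma adjusted p = 0.0014), whereas the 3 dimmer HK1 probes and the dimmer PFKFB3 probe (-0.15 in nucARRB1) were not called. The number of HIF1A targets called, 9 in nucARRB1, was 14 without parental replicate 1. In wtARRB1 it was 10, and 6 without GFP replicate 1, 6 without GFP replicate 3 and 4 without wtARRB1 replicate 2. The directions of the calls gained or lost were not counted. Some targets that did not pass in nucARRB1 were named after seeing the data. Furthest above GFP were PLOD2 (1.45, limma adjusted p = 0.0799), ANKRD37 (1.19, 0.0262), ALDOC (1.03, 0.0877) and NDRG1 (0.86, 0.037). For these, every ARRB1 array lay above every GFP array, and parental replicate 1 was the highest control. Parental replicate 1 also lay above every ARRB1 array for PLOD2 (9 against at most 8.87), ALDOC (11.73 against at most 11.37) and NDRG1 (8.69 against at most 8.66). For ANKRD37 it read 9.62, just below the highest ARRB1 array (9.65). Furthest below were ALDOA (-0.44, limma adjusted p = 0.0355) and JMJD6 (-0.44, 0.101).

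Of 18 measured genes for HIF partners and turnover, 2 rose, 2 fell and 14 did not pass in nucARRB1, and 1 rose, 2 fell and 15 did not pass in wtARRB1. SIAH1, a ubiquitin ligase that can target prolyl hydroxylases for degradation, rose by 0.66 in nucARRB1 (limma adjusted p = 0.00905) and by 0.90 in wtARRB1 (0.00106). A second bright SIAH1 probe was higher too, by 0.88 in nucARRB1 and 1.13 in wtARRB1, and the 2 dim SIAH1 probes were not called. The call of the brightest SIAH1 probe was lost in nucARRB1 with median scaling (0.50, limma adjusted p = 0.0651), against parental cells (0.0136), and without any 1 parental or GFP array (0.0118 to 0.0342) or nucARRB1 replicate 2 (0.32, 0.207). In wtARRB1 it was lost with median scaling (0.67, limma adjusted p = 0.0134), without normalisation (0.59, 0.06) and without wtARRB1 replicate 1 (0.78, 0.0228). P4HTM, a transmembrane prolyl hydroxylase, rose by 0.66 in nucARRB1 (limma adjusted p = 0.00278) and was 0.47 above GFP in wtARRB1 (0.0316), but its second probe differed by 0.04 in nucARRB1 and 0.11 in wtARRB1. With median scaling P4HTM differed by 0.44 in nucARRB1 (limma adjusted p = 0.118) and by 0.18 in wtARRB1 (0.711). The nucARRB1 call was lost without GFP replicate 1 or either nucARRB1 array (limma adjusted p = 0.0165 to 0.0181), and wtARRB1 passed without wtARRB1 replicate 2 (0.71, 0.0045). The chaperones HSP90AA1 and HSP90AB1, which hold the HIF alpha subunit, fell together. HSP90AA1 fell by 0.94 in nucARRB1 and by 1.13 in wtARRB1, and HSP90AB1 fell by 1.01 in nucARRB1 and by 0.98 in wtARRB1. A second bright HSP90AA1 probe fell as well, by 1.20 in nucARRB1 and by 1.44 in wtARRB1. The dimmest HSP90AA1 probe was not called, at 0.08 in nucARRB1 and 0.02 in wtARRB1. HSP90AA1 and HSP90AB1 are close in sequence, and how far each probe reads the other gene was not tested. The count of 4 called in nucARRB1 was 2 without GFP replicate 1 and 2 without nucARRB1 replicate 2. The list medians were 0.03 in nucARRB1 and -0.01 in wtARRB1.

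Of 30 measured genes for other mitophagy receptors and machinery, 4 rose, 1 fell and 25 did not pass in nucARRB1, and 3 rose, 1 fell and 26 did not pass in wtARRB1. Among those that rose were genes for proteins of the autophagosome membrane. MAP1LC3B, one of the LC3 proteins that BNIP3 and BNIP3L bind, read 10.04 and 10.80 in nucARRB1, 10.30 and 9.89 in wtARRB1, 8.27, 8.37 and 8.29 in GFP, and 8.80, 8.37 and 8.5 in parental cells. It was 4.33-fold higher in nucARRB1 (2.11 ± 0.185, limma adjusted p = 2.63e-06) and 3.45-fold higher in wtARRB1 (1.79 ± 0.185, limma adjusted p = 1.8e-05), with all 4 ARRB1 arrays above all 6 controls. GABARAPL1 rose 2.2-fold in nucARRB1 and 2.06-fold in wtARRB1, and GABARAPL2 rose 1.66-fold in nucARRB1 and 1.69-fold in wtARRB1. The kinase ULK1, which starts autophagosome formation and is named after its values were seen, was the remaining gene higher in nucARRB1 (0.69, limma adjusted p = 0.00941). That ULK1 call was lost with median scaling (0.48, limma adjusted p = 0.151), against parental cells (0.48, 0.105), and without any 1 parental, GFP or nucARRB1 array (0.0119 to 0.0894). Against parental cells GABARAPL2 was 0.42 above in nucARRB1 (limma adjusted p = 0.0271) and 0.44 above in wtARRB1 (0.024), without passing. Without normalisation GABARAPL1 (0.73, limma adjusted p = 0.0175) and GABARAPL2 (0.55, 0.0475) did not pass in wtARRB1. MFN2, which fuses outer mitochondrial membranes, fell by 0.90 in nucARRB1 and by 0.65 in wtARRB1. The MFN2 call in nucARRB1 was lost without nucARRB1 replicate 1 (-0.73, limma adjusted p = 0.0141) and against parental replicates 2 and 3 alone (-0.74, 0.0105). In wtARRB1 it was lost against parental cells (-0.45, limma adjusted p = 0.106) and without any 1 parental or GFP array (0.0104 to 0.0375) or wtARRB1 replicate 2 (-0.41, 0.205). The count of 5 in nucARRB1 was 3 without nucARRB1 replicate 1, and the count of 4 in wtARRB1 was 2 with parental cells as the control. The list medians were 0.09 in nucARRB1 and 0.06 in wtARRB1.

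Of 20 listed genes around 2-oxoglutarate and succinate, which encode enzymes, their subunits and assembly factors, 16 were measured and the other 4 were not analysed here. Of the 16, 2 rose, 2 fell and 12 did not pass in nucARRB1, and 2 rose, 1 fell and 13 did not pass in wtARRB1. SDHA, the catalytic subunit of succinate dehydrogenase, read 8.92 and 9.39 in nucARRB1, 9.55 and 9.45 in wtARRB1, 10.17, 9.96 and 10.26 in GFP, and 9.78, 9.93 and 10.11 in parental cells. All ARRB1 arrays lay below all control arrays. SDHA fell to 0.509-fold in nucARRB1 (-0.97 ± 0.145, limma adjusted p = 0.000266), and in wtARRB1 it was at 0.647-fold without passing (-0.63 ± 0.145, limma adjusted p = 0.0107). Its second probe, ILMN_1744210, differed by -0.73 in nucARRB1 (limma adjusted p = 0.00935) and by -0.63 in wtARRB1 (0.0269). SDHA passed in wtARRB1 with median scaling (-0.92, limma adjusted p = 0.0041), without normalisation (-1.0, 0.00445), and without parental replicate 1 (0.00973) or either nucARRB1 array (0.0024). The isocitrate dehydrogenases went different ways. IDH2, the mitochondrial NADP-dependent form, fell by 1.5 in nucARRB1 and by 1.03 in wtARRB1. Cytosolic IDH1 rose by 0.83 in nucARRB1 and by 1.20 in wtARRB1 on its brightest probe. A second IDH1 probe was higher by 1.3 in nucARRB1 (limma adjusted p = 1.26e-05) and by 1.24 in wtARRB1 (3.04e-05), so the size of the rise depended on the probe. Against parental cells IDH2 was 0.94 lower in nucARRB1 (limma adjusted p = 0.00474) and differed by -0.47 in wtARRB1 (0.233), and the nucARRB1 call was lost against parental replicates 2 and 3 alone (-0.84, 0.0183). Against GFP the IDH2 call in wtARRB1 was lost without GFP replicate 2 or 3 or wtARRB1 replicate 1 (limma adjusted p = 0.0136 to 0.0404). IDH3G, a subunit of the NAD-dependent enzyme, rose by 0.49 in nucARRB1 (limma adjusted p = 0.0042) and differed by 0.36 in wtARRB1 (0.035), or by -0.02 in wtARRB1 without normalisation between arrays. In nucARRB1 it was 0.26 with median scaling (limma adjusted p = 0.286), and the call was lost without any 1 GFP or nucARRB1 array (0.0122 to 0.0456). Against parental cells IDH3G passed in wtARRB1 (0.50, limma adjusted p = 0.00763). SUCLA2, a subunit of succinyl-CoA ligase, rose by 0.93 in wtARRB1 (limma adjusted p = 7.72e-05) and was 0.40 above GFP in nucARRB1 (0.0334). It was 0.57 above GFP in wtARRB1 without normalisation (limma adjusted p = 0.0543) and 0.19 above in nucARRB1 with median scaling (0.588). The dimmer probes of IDH3G and SUCLA2 were not called. The list medians were -0.03 in nucARRB1 and 0.13 in wtARRB1.

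**Figure D4:**
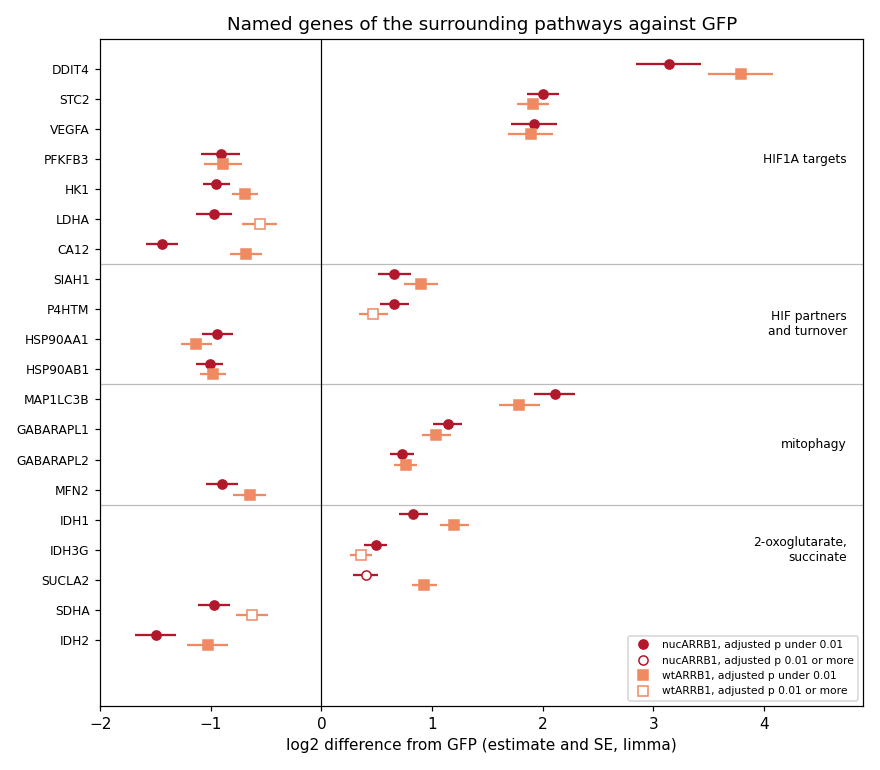
The log2 difference from GFP is on the horizontal axis and named genes of the 4 lists run down the vertical axis; points are limma estimates for nucARRB1 (circles) and wtARRB1 (squares), bars are standard errors and filled points have an adjusted p under 0.01. DDIT4, STC2 and VEGFA lie to the right (3.14, 2.00 and 1.92 in nucARRB1) and PFKFB3, HK1, LDHA and CA12 of the same list to the left (-0.91, -0.95, -0.97 and -1.44).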

How the data were processed

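Per the labels, biotinylated cRNA was made from total RNA for Illumina BeadChips. The authors pre-processed the arrays in R with beadarray and deposited log2 values per probe without normalisation between arrays, beside a quantile-normalised log2 table. Background correction and detection are not given in the sources used here. The first table (array medians 6.215 to 6.448) was quantile-normalised in limma 3.58.1 under R 4.3.3, and differed from the second by at most 0.0232. Group means of all 10 arrays were fitted by limma (residual degrees of freedom 6, prior 9.82), with two-sided tests and Benjamini-Hochberg adjustment over 48801 probes. Replicate numbers are shared across groups in the labels, but the fit has no block.

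Symbols came from the platform annotation through Entrez IDs (27576 probes with 1 symbol, 13 with several, 21212 not named here). A gene in a list is its brightest probe. Named were all member probes, SDHA and VEGFA, up to 3 called genes per list, line and direction, and the 3 genes most correlated with a called member. Members and lists were chosen with earlier results of these data known. Signal over background was not measured, and few arrays limit precision.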

Additional observations from a re-analysis of the deposited data

How the results depend on the processing

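Alternatives to the fit were the authors' normalised values, median scaling, no normalisation, a filter on dim probes (which kept 15 of 17 member probes), only the 2 groups compared, array weights, an intensity trend, a 5% false discovery rate, a replicate block, other controls, and leaving out each array. In nucARRB1 against GFP, 2 member probes were called, and 1 with median scaling, no normalisation, the filter on dim probes, array weights, the replicate block, parental control or GFP and parental control, the second BNIP3L probe being the one lost (adjusted p from 0.0104 to 0.0872 by limma). In wtARRB1 against GFP, 1 was called, 3 with only the 2 groups compared or at 5%, and 0 against parental cells. Leaving out 1 array gave 1 to 3 calls in nucARRB1, 1 to 3 in wtARRB1, and 0 in the other comparisons. No pairing by replicate number was seen: deviations of same-numbered arrays from their group means correlated at -0.084 to 0.054 over 13 pairs. The 2 arrays of each ARRB1 group deviate by equal and opposite amounts, so these pairs are not independent and a pairing could be missed. Of the 10 arrays, 1 correlated best with its own number. Apart from the call above, the replicate block changed no count of member probes by over 1.5 times.

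For the lists, HIF1A targets called in wtARRB1 were 10, and 6 against parental cells, mitophagy genes 4 and 2, and the 2-oxoglutarate and succinate enzymes 3, and 5 with median scaling. Leaving out 1 array gave 7 to 14 targets in nucARRB1 and 4 to 12 in wtARRB1, 2 to 4 partner genes in nucARRB1 and 2 to 4 in wtARRB1, 3 to 5 mitophagy genes in nucARRB1 and 3 to 6 in wtARRB1, and 3 to 5 enzymes in nucARRB1 and 2 to 4 in wtARRB1. Of 638 refits of single member probes, 628 kept their side of the threshold, 8 lost a call and 2 gained one. Leaving out 1 array lost 6 calls and gained 5 in 680. No called difference changed sign, whereas 35 and 52 of these values, never called, did. The causes were not tested. There were 7 member probes within 0.5 log2 units of the array median, where a change can be understated.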
